A study of Canis lupus familiaris with 18 samples.

Results

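Low light was compared with darkness in parental MDCKI cells, a kidney epithelial line from dog, which were not given a light-activated cyclase. The comparison rested on 6 of the 18 libraries of the series, 3 labelled as parental cells given a low light dose and 3 as parental controls given none, chosen by their labels alone. The parental line is the control for the engineered line of the study, MDCKI with bPAC, an adenylyl cyclase from bacteria whose synthesis of cyclic AMP is switched on by blue light, and the question was which transcripts differ when light is given without that enzyme. The other libraries were 2 of parental cells in high light and, of bPAC cells, 3 dark, 4 low light and 3 high light ones. All cells were plated in 6-well plates in medium with 0.5% serum and without phenol red, and the exposure, of 2 h, began 16 h after plating. The labels give neither the wavelength nor the intensity of the light and do not say how dark plates were handled, so light and handling cannot be told apart.

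Cyclic AMP activates protein kinase A, which phosphorylates CREB and related transcription factors, and their target genes respond within hours. In kidney epithelium this pathway carries the signal of vasopressin and controls ion and water transport and the growth of cysts. Mammalian adenylyl cyclases are not switched on by light as bPAC is, but flavins and other cell components absorb blue light. Illuminated cells of the unmodified line show what differs from the dark without bPAC, be it through light or through handling.

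Each library was read from near the 3′ ends of transcripts and gave a table of read counts for 32220 Ensembl dog gene IDs. The 6 libraries held 3308277 to 9610144 reads in genes and detected 11035 to 12594 genes. Levels are given as CPM, which are read counts divided by library size, with a correction for composition (TMM), and 8530 genes had enough reads to be tested. The tables give no gene symbols, and the reference table held 0 of these IDs, so genes are described by level, size of change and behaviour in other groups, and 2 per direction are given by ID. For the same reason neither the kidney epithelial markers nor lists of cyclic AMP targets could be looked up, and the bacterial cyclase is not among the dog IDs. The labels do not say that replicates were separate cultures, and p-values then reflect only how far these libraries vary, a variation that may be technical.

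Low light libraries of parental cells differed from dark ones in 976 of the 8530 tested genes, or 11.4%, at an adjusted p under 0.05 (edgeR's quasi-likelihood test with Benjamini-Hochberg adjustment). Of these, 577 genes rose in low light (6.76% of those tested) and 399 fell (4.68%). The balance of directions depended on the fit: 618 rose and 682 fell without a filter on low counts, 619 and 642 in a fit of only the 8 parental libraries, 621 and 604 with only the groups compared, and 489 and 568 without parental dark replicate 3. The changes were mostly moderate. The median gene that rose did so 2.12-fold and the median gene that fell did so 2.18-fold, with 330 and 240 genes past 2-fold (3.87% and 2.81% of those tested) and 45 and 50 past 4-fold. An unadjusted p under 0.05 was reached by 2422 genes, or 28.4%. Among the genes that fell, 3 had no read in any low light library against 29 to 43 reads in the dark libraries, and were at least 7.18-fold to 10.7-fold lower at a floor of 3 reads over the low light group. Placing them at that floor left the median log2 fold change of the falling genes at -1.12.

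The calls depended strongly on 2 libraries. Without parental dark replicate 2 the count was 242, and without parental low light replicate 2 it was 268. With both left out it was 36, of which 35 rose and 1 fell. Leaving out parental low light replicate 1 gave 634 genes. The count of falling genes was 59 and 54 without either of the first 2 libraries, 230 without parental low light replicate 1 and 258 without replicate 3. In each of these fits, all of the 976 genes that were still tested kept the sign of their change. This was nearly fixed in advance, since the fits reuse the same libraries. The groups did not overlap for 567 of the 577 rising and 386 of the 399 falling genes.

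The 3 low light libraries lay entirely above the 3 dark ones for 567 of the 577 genes that rose, and entirely below for 386 of the 399 that fell. Over all tested genes, called or not, such a separation was found upwards in 17.0% and downwards in 16.3%. The called genes were chosen on these same libraries, so their separation was nearly fixed in advance and is a description only. Between pairs of libraries, the median absolute log2 difference over 4147 genes with a mean of at least 20 CPM was 0.22 to 0.29 within the dark group and 0.21 to 0.25 within the low light group. The 9 pairs of a dark and a low light library differed by 0.32 to 0.50, more than any pair within a group. The most distant pair was parental dark replicate 2 with parental low light replicate 2, the same libraries on which the counts turned most.

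**Figure D1:**
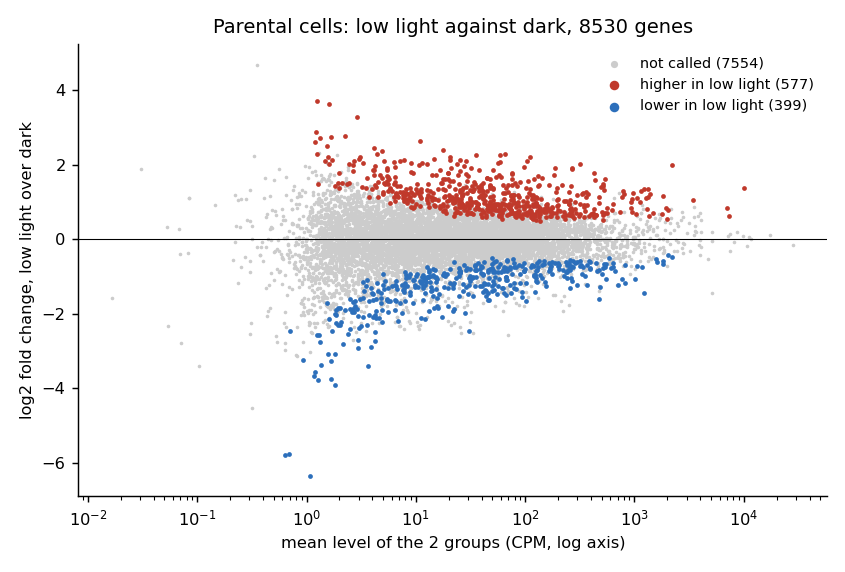
Change of each of the 8530 tested genes between low light and dark in parental cells. The horizontal axis is the mean level of both groups in CPM on a log scale and the vertical axis the fitted log2 fold change, with 577 genes called higher in red, 399 called lower in blue and the others in grey.

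Abundant transcripts were called more often than scarce ones. Of the 2173 genes under 5 CPM, 5.80% were called, of the 2572 between 20 and 100 CPM 13.8%, and of the 313 at 500 CPM or more 21.7%. The median standard error of a log2 fold change was 0.53 in the first of these classes and 0.20 in the last, so smaller changes could be called at high levels. The median absolute log2 fold change of called genes went from 2.04 under 5 CPM to 0.83 at 500 CPM or more.

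The balance of directions also differed by level. Under 5 CPM, 47 genes rose and 79 fell. Between 20 and 100 CPM it was 231 against 123, and at 500 CPM or more 43 against 25. Among all tested genes the median log2 fold change was -0.01, and 49.0% lay above 0.

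**Figure D2:**
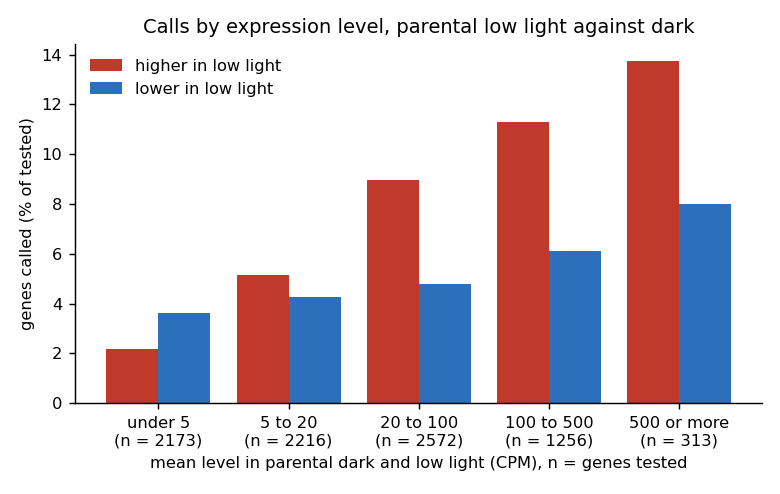
Share of tested genes called in parental low light against dark, by mean level of the 6 libraries in CPM, with red bars for genes called higher and blue bars for genes called lower. Both shares increase with level, and genes called lower outnumber those called higher only under 5 CPM.

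Genes that rose took up a larger part of the transcriptome. Together the 577 genes held 8.78%, 6.75% and 8.54% of the normalised reads of tested genes in the dark libraries 1 to 3, and 14.9%, 16.4% and 14.8% in the low light libraries. The 399 genes that fell held 6.34%, 7.99% and 6.48% in the dark and 3.93%, 3.33% and 3.97% in low light. These genes were chosen on the same libraries, and the shares describe how much RNA the calls involve. Dark replicate 2 had the lowest share for the first set and the highest for the second, and low light replicate 2 the reverse.

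A smaller set was called without each of the 6 libraries in turn. It held 208 genes, 170 that rose and 38 that fell, or 29.5% of the rising and 9.52% of the falling genes. The 170 genes had a median dark level of 26.5 CPM and rose by a median of 1.46 on the log2 scale. The 38 genes were more abundant, with a median dark level of 124 CPM against 41.7 CPM for all 399, and a median log2 fold change of -1.18. The genes given by ID below come from this set. They had the largest changes among genes that reached 20 CPM in the higher group and changed at least 2-fold without overlap between the groups. These conditions left 136 rising and 19 falling genes to choose from.

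ENSCAFG00000004563 stood at 5.73, 2.41 and 8.81 CPM in the dark libraries 1 to 3 and at 27.4, 36.5 and 26.0 CPM in the low light libraries. Every low light library was above every dark one, as the rule of choice required, and dark replicate 2, with 9 reads, was the lowest of the 6. The gene rose 5.22-fold, with a log2 fold change of 2.38 (SE 0.35; edgeR adjusted p = 0.000407).

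ENSCAFG00000029882 had the smallest adjusted p of all genes that rose. Its levels were 20.4, 19.0 and 26.9 CPM in the dark and 95.6, 121 and 106 CPM in low light. The groups were far apart relative to their spread, at 22.1 ± 4.19 against 107 ± 12.5 CPM (SD, n = 3 each). This was a 4.86-fold rise, or 2.28 on the log2 scale (SE 0.27; edgeR adjusted p = 9.45e-05).

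ENSCAFG00000017232 was measured at 16.3, 22.8 and 23.3 CPM in the dark and at 4.71, 5.16 and 6.27 CPM in low light. The low light libraries lay close together and held 73 reads in all, against 350 in the dark libraries. The gene fell 3.81-fold (log2 fold change -1.93, SE 0.41; edgeR adjusted p = 0.00614).

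ENSCAFG00000029618 had the narrowest groups of the 4, with 35.4, 37.3 and 32.3 CPM in the dark and 9.12, 9.58 and 9.74 CPM in low light. It fell 3.68-fold (log2 fold change -1.88, SE 0.40; edgeR adjusted p = 0.00652). Neither falling gene was called with dark replicate 2 and low light replicate 2 left out together, at edgeR adjusted p = 0.144 for ENSCAFG00000017232 and 0.126 for ENSCAFG00000029618, while both rising genes were. The log2 fold changes of the falling genes in that smaller fit were -1.83 and -1.85.

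**Figure D3:**
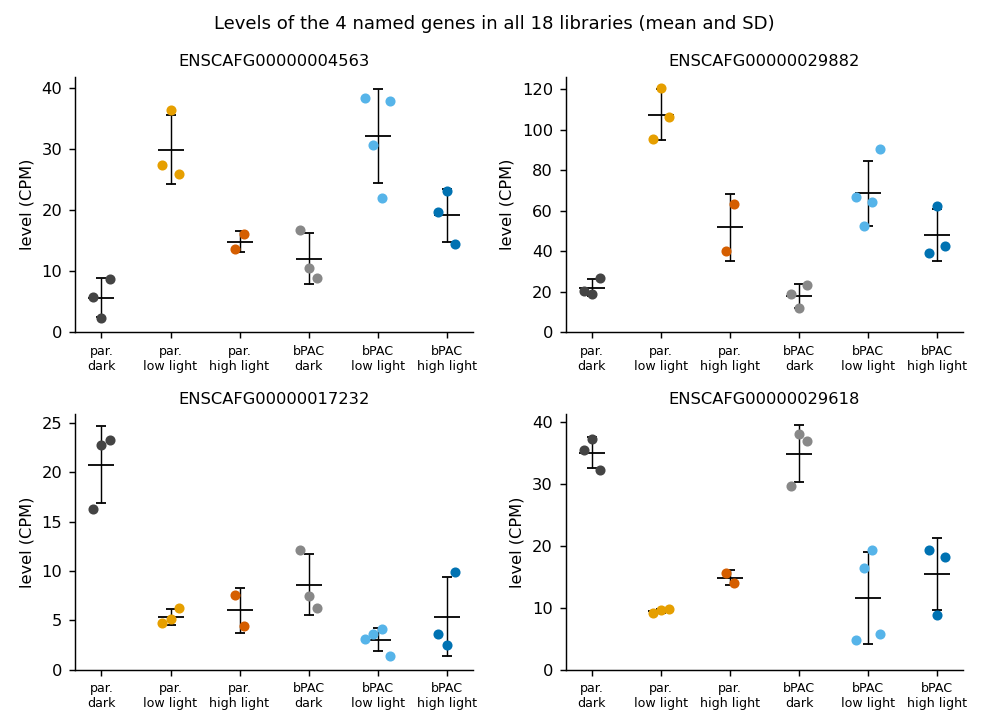
Levels in CPM of the 4 genes given by ID, in all 18 libraries by group. Points are libraries, horizontal marks are group means and bars are 1 SD. In parental cells the low light libraries of each gene lie apart from the dark ones, as the rule of choice required, and the high light libraries lie between them on average.

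The libraries of bPAC cells gave a separate reading of the same light dose, since they share no library with the parental comparison, only the model's estimate of the spread. Of the 577 genes that rose in parental cells, 492 were also called higher in bPAC low light than in bPAC dark. This is 85.3% of the parental list, where 17.2% of all tested genes were called higher in bPAC cells. It is 33.5% of the 1468 genes of the bPAC list, where 6.76% of all tested genes were called higher in parental cells. Of the 399 that fell, 325 were also called lower, or 81.5% of the parental list, against 18.1% of all tested genes in bPAC cells. They made up 21.1% of the 1541 genes of the bPAC list, against 4.68% of all tested genes called lower in parental cells. Without parental dark replicate 2 the genes called in both lines numbered 227 in place of 817, without parental low light replicate 2 they numbered 253 and without replicate 1 of that group 536. The bPAC list itself held 1734 genes without bPAC dark replicate 2, in place of 3009 (35.3% of those tested).

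For the genes called in parental cells, the median size of the response was also close in both lines. These genes were chosen on the parental libraries, which favours larger parental values, and genes called in bPAC cells alone are described further below. For genes that rose in parental cells the median log2 fold change was 1.09 there and 1.04 in bPAC cells, and for those that fell it was -1.12 and -1.02. In bPAC cells 576 of the 577 and all 399 had the parental sign. For 499 of the 577 (86.5%) every bPAC low light library was above every bPAC dark library, as it was for 19.6% of all tested genes. For 338 of the 399 (84.7%) every one was below, against 22.0% of all tested genes.

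By size of change, the 103 rising genes with a parental log2 fold change under 0.75 had a median of 0.67 in parental and 0.69 in bPAC cells. The 45 rising genes past 2 had medians of 2.15 and 1.59, and their median dark level was only 1.99 CPM. The 50 falling genes past -2 had medians of -2.47 and -2.56. Thus the lines had similar medians in most size classes, and parental values were larger among the scarce genes with the largest rises. The classes were set by the parental values.

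**Figure D4:**
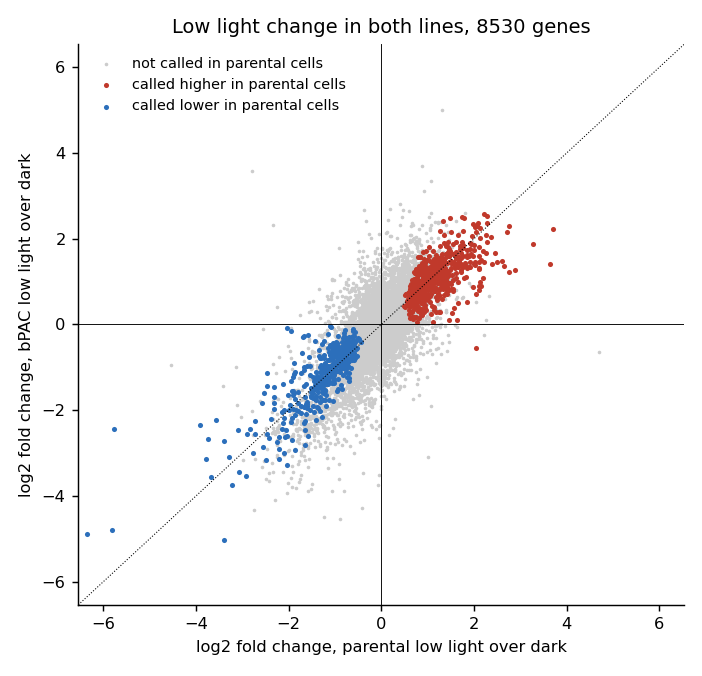
Log2 fold change between low light and dark in parental cells (horizontal axis) and in bPAC cells (vertical axis) for the 8530 tested genes. Red and blue points are the genes called higher and lower in parental cells, and the dotted line marks equal change. All but 1 of the called genes keep their sign in bPAC cells.

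Whether the low light change differed between the lines was tested with an interaction term. It was called for 3 of the 8530 genes (0.0352%), none of them among the 976 of the parental comparison, where the smallest edgeR adjusted p was 0.423. Among the 976, 38 genes had an unadjusted p under 0.05, or 3.89%, against 5.94% of all tested genes. DESeq2 called 2 of the 976 and limma-voom 0. Over all genes the interaction was called for 13 by DESeq2 and for 76 by edgeR without a filter on low counts. The median of the difference, bPAC minus parental, was -0.03 on the log2 scale for the rising genes and 0.05 for the falling ones, with a median SE for a single gene of 0.33 and 0.39. Differences of about this size in a single gene were not detectable here. The count of 3 was 6 without parental dark replicate 1, and 1 without parental dark replicate 3, parental low light replicate 2, bPAC dark replicate 2 or bPAC dark replicate 3. The 976 genes were chosen on the parental libraries, which also enter the interaction.

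For the 4 genes given by ID, the bPAC low light changes had the same direction. ENSCAFG00000029882 rose 3.77-fold in bPAC cells, with 18.1 ± 5.78 CPM in the 3 dark and 68.5 ± 16.0 CPM in the 4 low light libraries (SD; edgeR adjusted p = 0.000212). ENSCAFG00000004563 rose 2.65-fold there, less than in parental cells, but the difference of -0.98 on the log2 scale (SE 0.46) did not pass the test (edgeR adjusted p = 0.809). Its dark level in bPAC cells, 12.1 ± 4.18 CPM (SD, n = 3), lay above the 5.65 ± 3.20 CPM of parental cells (SD, n = 3). The groups nearly touched, with the lowest bPAC dark library at 8.92 and the highest parental dark one at 8.81 CPM. A difference between the lines in the dark was not tested. ENSCAFG00000017232 and ENSCAFG00000029618 fell 2.94-fold and 3.04-fold in bPAC cells (edgeR adjusted p = 0.00828 and 0.00345).

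Genes called in parental low light alone were not of opposite behaviour in bPAC cells. For the 85 rising genes of this kind the median log2 fold change was 1.13 in parental and 0.48 in bPAC cells, with 84 of the 85 above 0 in bPAC cells. The 74 falling ones had medians of -1.03 and -0.47, with all 74 below 0. At an unadjusted p under 0.05 the interaction picked out 17 of the 85 (20%) and 10 of the 74 (13.5%), against 5.94% of all tested genes, and 0 of them after adjustment. Being called in 1 line and not in the other selects for such a difference, so these shares are a description.

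Conversely, 976 genes rose in bPAC cells alone and 1216 fell there alone, the first number being equal to the parental total by coincidence. In parental cells they had median log2 fold changes of 0.45 and -0.61, against 0.95 and -1.26 in bPAC cells, where they were chosen. An unadjusted p under 0.05 in parental cells was reached by 349 (35.8%) and 499 (41.0%) of them, against 28.4% of all tested genes. The 28.4% is not a like baseline, since it includes every gene called in parental low light and these sets leave all of those out. Among genes not called there the share is lower.

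In parental high light, which was compared with the same 3 dark libraries and is therefore not independent, the fold changes of these genes had smaller medians. The median for the 577 rising genes was 0.58 on the log2 scale between high light and dark, beside 1.09 in low light, and for the 399 falling genes it was -0.66 beside -1.12. These genes were called on the gap between low light and dark, which by itself favours smaller high light medians and high light means in between. A difference between the doses was not tested. The high light mean lay between the dark and the low light mean for 500 of the 577 and 351 of the 399. It was beyond the low light mean for 40 and 42 genes, and on the far side of the dark mean for 37 and 6. Both high light libraries were above all 3 dark ones for 386 of the 577 (66.9%, against 16.4% of all tested genes) and below for 262 of the 399 (65.7%, against 16.1%). Only 10 and 2 of them were called on their own, where 0.141% and 0.0352% of all tested genes were called higher and lower, and the group holds 2 libraries. In bPAC high light against bPAC dark, 314 of the 577 were called higher and 173 of the 399 lower, where 12.7% and 11.9% of all tested genes were so called, and 9 and 1 genes were called in the opposite direction.

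The course over all libraries can be followed with the median deviation of each set from the parental dark mean, on the log2(CPM + 1) scale. For the rising genes it was 0.95, 1.13 and 0.96 in the parental low light libraries and 0.51 and 0.62 in the high light ones. In bPAC cells, whose levels did not enter the parental fold changes, it ranged from -0.05 to 0.21 in the dark, from 0.94 to 1.29 in low light and from 0.67 to 1.04 in high light. The falling genes gave nearly a mirror image, at -0.94, -1.13 and -0.97 in parental low light and -0.86 to -1.30 in bPAC low light. In the bPAC high light libraries they lay from -0.57 to -1.11. In bPAC cells no illuminated library overlapped a dark one on either measure. In parental cells the low light and dark libraries had to separate, since the genes were called on them. Parental dark replicate 2 was the parental dark library farthest from the illuminated ones, at -0.23 and 0.20.

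**Figure D5:**
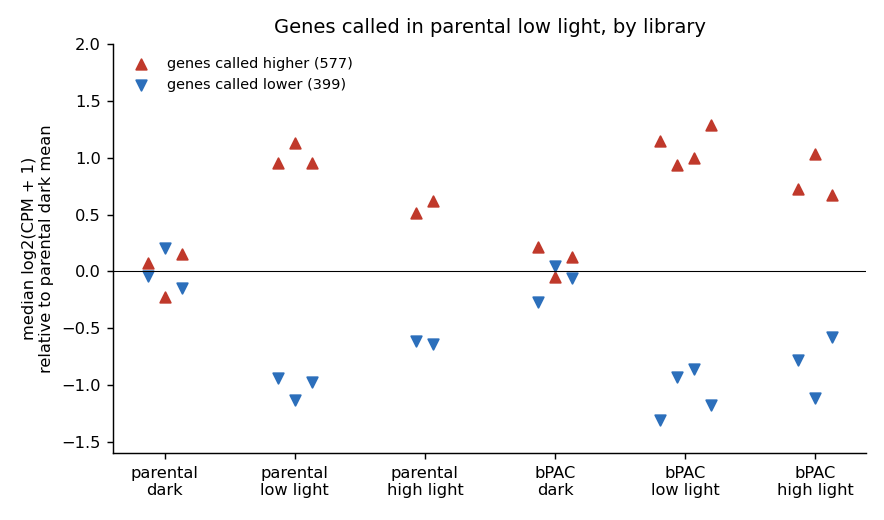
Median deviation from the parental dark mean, in log2(CPM + 1), of the 577 genes called higher (red) and the 399 called lower (blue) in parental low light, in each of the 18 libraries. Illuminated libraries of both lines lie apart from dark ones, and the parental high light libraries lie between the dark and the low light ones. The genes were chosen on the parental low light and dark libraries.

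Some measures of the libraries themselves also separated parental low light from dark, though with 3 against 3 libraries none could pass a test at 0.05. Reads that overlap more than 1 gene and are counted for none made up 0.0367, 0.0329 and 0.0404 per 100 gene reads in the dark libraries and 0.0528, 0.0605 and 0.0580 in the low light ones (exact two-sided permutation p = 0.1, the smallest that 3 against 3 libraries allow; 0.167 after adjustment over 5 measures). In parental high light they made up 0.0451 and 0.0515. The bPAC libraries separated in the same way, with 0.0352 to 0.0411 in the dark and 0.0475 to 0.0581 in low light. Reads outside annotated genes were 27.5% to 27.9% of all reads in the dark and 28.3% to 29.6% in low light, again without overlap and at the same p. In parental high light the values were 26.4% and 28.9%, without this separation. In bPAC cells dark and low light overlapped, at 27.6% to 28.2% and 27.5% to 29.5%. The bPAC high light values were 25.1% to 26.4%, below every bPAC dark library and so in the opposite direction. With all libraries thinned to 2638511 gene reads, 10819 to 11022 genes were detected in the dark and 10674 to 10790 in low light, also without overlap and at the same p. In bPAC cells these counts overlapped, at 11003 to 11179 in the dark and 10684 to 11048 in low light. High light counts lay below all dark libraries of the same line, at 10536 and 10557 in parental and 10337 to 10617 in bPAC cells. The difference in mean count, parental low light minus dark, was -149 genes. It was -154 when a gene needed at least 5 reads (exact two-sided permutation p = 0.2), so the separation was not complete at that cutoff. The other measures did not separate parental low light from parental dark. Reads aligned to more than 1 place were 39.6% to 40.4% in the dark and 39.7% to 42.0% in low light, and the 10 most abundant genes took 13.3% to 13.9% and 13.3% to 13.8% of gene reads. In bPAC cells these 10 took 14.2% to 15.2% in the dark, 16.0% to 18.5% in low light and 17.2% to 21.2% in high light. There, reads aligned to more than 1 place were 38.5% to 39.9% in the dark, 37.5% to 40.7% in low light and 41.7% to 44.4% in high light. What part these measures have in the called genes was not tested.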

How the data were processed

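For each library the authors deposited unnormalised read counts per gene. Per the labels' protocols, Lexogen kits were used for RNA extraction (SPLIT) and for library preparation (QuantSeq 3' FWD), and 3' counts do not scale with transcript length. The submitters' processing notes name the genome build CanFam3.1. What aligner, counting program and annotation release were used is not given in the sources used here.

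Rows without a gene, 5 per table, held 67.3% to 70.2% of all reads in the 6 libraries and were left out of library sizes and tests. Groups came from the labels. A single model of 6 groups was fitted to all 18 libraries, since groups of 2 to 4 libraries share an estimate of the spread. Genes were filtered with filterByExpr (minimum count 10), scaled by TMM and tested with edgeR 4.0.16 in R 4.3.3 (glmQLFit with robust estimation), with Benjamini-Hochberg adjustment at 0.05. Standard errors were derived from the log2 fold change and the F statistic, as its size over the root of F. Replicates were numbered in accession order. Within the 2 main groups, pairs of libraries differed by more than sampling noise (chi-square over its degrees of freedom 10.7 to 36.8), and each was counted once.

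Genes given by ID had to be called with and without each of the 6 libraries, to change at least 2-fold without overlap and to reach 20 CPM, and the 2 largest changes per direction were taken. Members and lists were chosen with earlier results of these data known, and the symbol-based lists and markers were not run because no ID had a symbol. On simulated counts 31% of 100 genes changed 2-fold and 78% of 100 changed 4-fold were recovered for parental low light against dark, over 8238 genes, with 4 false calls. The simulation changed 200 genes, fewer than the 976 called in the data, and drew the libraries independently. Recovery in the data may therefore differ. Alternatives used DESeq2 1.42.0, limma 3.58.1 and other filters, scalings and sets of libraries. A surrogate variable (sva 3.50.0) and the fit without replicate 2 of both groups were added after the data had been seen.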

Additional observations from a re-analysis of the deposited data

Results flagged for a closer look

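The low light change differed between the lines for 3 genes by the interaction term (bPAC minus parental), with edgeR adjusted p-values of 0.00296, 0.0113 and 0.0182. None of the 3 was called in parental cells. They lie outside the rule for genes given by ID and were taken because the test called them.

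ENSCAFG00000006638 had the largest difference, -2.67 on the log2 scale (SE 0.35). In parental cells it stood at 28.6, 15.6 and 15.4 CPM in the dark and 23.8, 25.4 and 22.9 CPM in low light, so the groups overlapped. In bPAC cells it stood at 75.9 ± 5.93 CPM in the 3 dark and at 14.3 ± 3.89 CPM in the 4 low light libraries (SD; edgeR adjusted p = 1.34e-05). Its dark level thus already differed between the lines, with every bPAC dark library above every parental dark one. It was the 1 gene of the 3 whose interaction was called in every alternative that gave a value.

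ENSCAFG00000016984 differed by 2.06 (SE 0.31), with 62.1, 64.6 and 92.7 CPM in parental dark and 96.8, 81.4 and 120 CPM in parental low light, groups that overlap. In bPAC cells it rose 5.66-fold, with 80.8 ± 4.54 CPM in the 3 dark and 458 ± 109 CPM in the 4 low light libraries (SD; edgeR adjusted p = 8.96e-06).

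ENSCAFG00000018583 differed by 1.51 (SE 0.25), with 790, 957 and 1107 CPM in parental dark and 772, 620 and 704 CPM in parental low light. Every low light library was below every dark one, at the closest by 772 against 790 CPM, as in 16.3% of all tested genes. The parental change was not called (edgeR adjusted p = 0.108). In bPAC cells it rose 2.10-fold (edgeR adjusted p = 0.000481), from a dark level of 533 to 649 CPM that lay below every parental dark library. Its bPAC low light level of 1536 CPM in replicate 1 stood apart from the other 3 libraries, at 1130 to 1190 CPM. It was the 1 value to stand apart among 12 groups examined, by a rule whose nominal rate is about 1 in 20 per group, not estimated from these data.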

How the results depend on the processing

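The 976 genes called in parental low light kept their direction in every alternative wherever they were tested. The alternatives reuse the same libraries, which did not overlap for nearly all of these genes, so a direction could hardly change. Their number was 892 to 1300 over the other scalings, tests, filters and depths, the smaller sets of libraries and the surrogate variable, and 36 without dark and low light replicate 2 together (35 higher, 1 lower). Leaving out 1 of the 6 libraries gave 242 to 1057 genes, 183 to 489 higher and 54 to 568 lower; such fits have fewer samples. The lower count was 682 without a filter, 604 with only the groups compared and 642 with only the 8 parental libraries. Genes higher made up 59.1% of the calls, 56.6% with DESeq2's size factors and 55.7% with upper-quartile scaling, but 47.5% without a filter, where 16648 genes were tested, 49.1% with only the 8 parental libraries, 50.7% with only the groups compared and 46.3% without parental dark replicate 3. The interaction count was 13 with DESeq2, 76 without a filter and 1 to 6 on leaving out 1 library. Genes called in both lines numbered 227 to 942 and bPAC calls 1734 to 3260 on leaving out 1 library. For ENSCAFG00000017232 and ENSCAFG00000029618, 1 of 17 alternatives each lost the call. The interaction of ENSCAFG00000016984 was lost without 1 of 4 libraries (adjusted p up to 0.0867, log2 values 1.89 to 2.05) and that of ENSCAFG00000018583 without 1 of 6 (up to 0.12, log2 values 1.43 to 1.55), beside 2.06 and 1.51 with all libraries. The difference (low light minus dark) in reads aligned to more than 1 place was 0.35 percentage points, and -0.38 to 0.73 on leaving out 1 library. For the 10 most abundant genes it was -0.02, -0.18 to 0.15 on leaving out 1 library, and 1.31 for the 50 most abundant. Except where stated, the cause was not tested. No paired analysis was possible because the labels carry no replicate numbers. Depth limits scarce genes most: under 5 CPM the median SE was 0.53.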
